A study of Mus musculus with 4 samples.

Results

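Genes of VEGF and angiopoietin signalling were followed through 4 single-cell libraries of sorted mouse muscle cells, as 8 of the 27998 genes counted. They were chosen by name and role: the ligands *Vegfa*, *Vegfb* and *Angpt1*, the receptors *Kdr*, *Flt1* and *Tek*, and the co-receptors *Nrp1* and *Nrp2*. Each library held cells of pooled hindlimb muscles of 2 mice, stained for ITGA7 and VCAM and depleted of cells with Cd11b, Sca1, Cd45 or Cd31, a sort for satellite cells, the stem cells of skeletal muscle. B10 was C57/Bl10ScsSn at 15 weeks and *mdx*, its dystrophic counterpart, was C57BL/10ScSn-Dmdmdx at 11 weeks. DBA was DBA/2 at 13 weeks and D2-*mdx*, which carries the same mutated dystrophin gene on the DBA/2 background, was D2.B10-Dmdmdx at 14 weeks. Both dystrophic strains carry the mutated dystrophin gene in every tissue from birth. A difference in a cell type therefore cannot be assigned to loss of dystrophin in that cell type. Within each pair the strain cannot be told apart from the age and from the single preparation of cells.

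VEGF-A is secreted by tissues that need blood supply and binds receptors on endothelial cells, KDR (VEGFR2), which carries most of the growth signal, and FLT1 (VEGFR1), which binds the ligand tightly and limits its supply. Neuropilins NRP1 and NRP2 are co-receptors that present VEGF to these receptors and also bind semaphorins, guidance proteins that signal through plexins. Angiopoietin 1, made by pericytes and other cells around vessels, activates the receptor TIE2, encoded by *Tek*, and keeps vessels quiescent and tight. In muscle, satellite cells lie close to capillaries and are a known source of VEGF-A, and TIE2 signalling has been linked to their return to quiescence.

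After filtering, the libraries held 3279 to 6313 cells with median depths of 6675 to 10434 UMIs (unique molecular identifiers, each standing for 1 captured transcript), and any pair of libraries shared 3 to 8 cell barcodes. Levels are given on the counts-per-million scale (CPM), the UMIs of a gene relative to all UMIs summed over the cells of one class in one library. With 1 library per strain there was no replicate check and no test: the intervals quoted cover 95% of counting error only (exact Poisson for levels, exact binomial for shares and ratios), and "rose" or "fell" marks a ratio past 2-fold in a gene with at least 10 CPM and 10 UMIs in 1 library of the pair. *Dmd*, the dystrophin gene, stood at 324 CPM in B10 and 288 in DBA but 120 in *mdx* and 93.8 in D2-*mdx*, in myogenic cells, lower in both libraries labelled as dystrophic. Myogenic cells made up 96.5% of the B10, 76.3% of the *mdx*, 82.3% of the DBA and 72.6% of the D2-*mdx* cells. The depletion had not removed every other type: 9 to 253 cells per library were endothelial cell-like and 97 to 984 were pericyte-like. The 6 satellite cell markers summed to 2764 to 4578 CPM in myogenic cells and 549 to 735 CPM in pericyte-like cells. *Pecam1*, which encodes the depleted Cd31, was among the 7 endothelial markers. These were all found in endothelial cell-like cells, at a sum of 6893 to 8199 CPM, against 3.51 to 16 CPM in myogenic cells.

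Only the promoters of *Vegfa* and *Tek* are shown here, since these are the members that were lower in both dystrophic libraries in the sorted cells. RefSeq windows (GRCm38.p6) could be matched for 7 of the 8 genes. *Vegfa* lies on chromosome 17 (46016993 to 46032369, minus strand) and *Tek* on chromosome 4 (94739289 to 94874976, plus strand). The 250 bases before each annotated start are printed 5′ to 3′ on the strand of the gene, chr17:46032378-46032627 for *Vegfa* and chr4:94739039-94739288 for *Tek*. Capitals mark the SP1 motif GGGCGG.
Vegfa: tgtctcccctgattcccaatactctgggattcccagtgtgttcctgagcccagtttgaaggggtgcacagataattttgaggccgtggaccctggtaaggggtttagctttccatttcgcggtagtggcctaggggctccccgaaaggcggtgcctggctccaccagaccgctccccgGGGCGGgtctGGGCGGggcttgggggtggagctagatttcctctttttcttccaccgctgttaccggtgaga
Tek: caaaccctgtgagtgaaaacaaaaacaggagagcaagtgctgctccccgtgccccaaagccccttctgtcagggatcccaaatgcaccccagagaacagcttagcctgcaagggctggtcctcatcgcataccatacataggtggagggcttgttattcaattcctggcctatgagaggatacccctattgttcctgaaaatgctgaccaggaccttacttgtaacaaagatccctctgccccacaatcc
The *Vegfa* window held 2 SP1 matches, 72 and 62 bases before the start, and the *Tek* window none. Neither of these windows held the other motifs searched on both strands, the hypoxia response element core (ACGTG or GCGTG), AP-1 (TGANTCA), the myogenic E-box (CAGCTG) or the forkhead motif (GTAAACA). A second RefSeq start of *Vegfa*, inside the gene, has a window of its own at chr17:46025164-46025413, which held 2 matches to the hypoxia core, 218 and 211 bases before that start, and 1 to SP1. Over all 32851 RefSeq windows of this length, 32.7% held the SP1 motif, 38.6% the hypoxia core, 6.75% AP-1, 13.0% the E-box and 3.17% the forkhead motif. The overlapping letters of the motifs were not separated, and a match is a description of these letters only.

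The first question was how the ligands differed between dystrophic and control myogenic cells. *Vegfa* fell in both dystrophic libraries: it stood at 57.3 CPM in B10 (2285 UMIs, interval 55.0 to 59.7) and 51.1 in DBA (1540 UMIs, 48.6 to 53.7) but 10.5 in *mdx* (424 UMIs, 9.53 to 11.6) and 12.7 in D2-*mdx* (443 UMIs, 11.5 to 13.9). The control levels were near each other and the dystrophic levels were near each other, and no dystrophic interval reached a control one. *mdx* was 5.45-fold lower than B10 (log2 ratio -2.45, -2.60 to -2.30), and D2-*mdx* was 4.02-fold lower than DBA (-2.01, -2.16 to -1.86). *Vegfb* (chromosome 19, 6982473 to 6987651, minus strand), a related ligand that binds FLT1 but not KDR, did not follow it. It stood at 23.2 CPM in B10 and 29.3 in DBA but 31.4 in *mdx* and 37.9 in D2-*mdx*, with log2 ratios of 0.44 (0.31 to 0.56) and 0.37 (0.25 to 0.50), short of 2-fold.

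*Angpt1*, on chromosome 15 (42424723 to 42676977, minus strand), differed between the dystrophic libraries as well as between *mdx* and B10. Its level in myogenic cells was 10.0 CPM in B10 (400 UMIs) and 24.0 in *mdx* (967 UMIs) but 5.61 in DBA (169 UMIs) and 7.34 in D2-*mdx* (256 UMIs), so the *mdx* library stood above all others. It rose in *mdx* over B10, by 1.26 on the log2 scale (1.09 to 1.43). In the DBA/2 pair both libraries were under the 10 CPM minimum, and the log2 ratio was 0.39 (0.10 to 0.68). D2-*mdx* was 3.27-fold lower than *mdx* (log2 -1.71, -1.91 to -1.51), and DBA over B10 was -0.84 (-1.11 to -0.58), in the same direction and short of 2-fold. These comparisons passed the minimum only through *mdx* and through B10. Background, disease, age and preparation cannot be told apart here.

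*Tek*, the receptor for angiopoietins, fell in myogenic cells of both dystrophic libraries. The levels were 47.8 CPM in B10 (1905 UMIs, 45.6 to 50) and 48.3 in DBA (1457 UMIs, 45.9 to 50.9) but 13.3 in *mdx* (537 UMIs, 12.2 to 14.5) and 12.4 in D2-*mdx* (434 UMIs, 11.3 to 13.7). The control libraries overlapped in their intervals, as did the dystrophic ones, with a wide gap between. The log2 ratios were -1.84 (-1.98 to -1.71) and -1.96 (-2.12 to -1.80), or 3.59-fold and 3.89-fold lower. Pericyte-like cells, the other main class, held 0.395 to 4.78 CPM of *Tek*. Smaller classes, some of few cells, held more: fibroblast or tenocyte-like cells 12.3 to 62.2 and glial cell-like cells 5.93 to 19.3 CPM. White blood cell-like cells held 2.63 to 75.4 CPM, the highest value coming from the 1 such cell of B10. Their mean over the dystrophic libraries was 4.50 CPM. Vascular smooth muscle-like and Schwann cell-like cells held at most 4.97 and 9.04 CPM. The part of RNA from other cells in the myogenic *Tek* counts was not tested.

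*Nrp1*, on chromosome 8 (128358604 to 128503363, plus strand), rose in both. It stood at 5.54 CPM in B10 (221 UMIs, 4.83 to 6.32) and 5.87 in DBA (177 UMIs, 5.04 to 6.80) but 57.1 in *mdx* (2303 UMIs, 54.8 to 59.4) and 51.6 in D2-*mdx* (1799 UMIs, 49.2 to 54.0). The log2 ratios were 3.36 (3.16 to 3.57) and 3.13 (2.91 to 3.37), 10.3-fold and 8.78-fold higher, the widest among the members tested in myogenic cells. Both control levels were under the 10 CPM minimum, so the gene was tested only through the dystrophic libraries and was bound to differ. *Nrp2* (chromosome 1, 62703285 to 62818695, plus strand) was low throughout, at 1.25, 7.18, 1.29 and 8.60 CPM in B10, *mdx*, DBA and D2-*mdx*, under the minimum for a call. Its log2 ratios, given as values only, were 2.52 (2.08 to 2.98) and 2.73 (2.25 to 3.25).

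The VEGF receptors gave few counts in the sorted cells. *Kdr* (chromosome 5, 75932827 to 75978458, minus strand) gave 2 UMIs in B10 and 3 in DBA but 36 in *mdx* and 28 in D2-*mdx*, over all myogenic cells, and *Flt1* (chromosome 5, 147561604 to 147726011, minus strand) gave 13 and 20, against 65 and 30. The 7 endothelial markers summed to 140, 484, 144 and 558 UMIs in the myogenic cells of B10, *mdx*, DBA and D2-*mdx* (3.51 to 16 CPM). Per 100 endothelial marker UMIs, *Kdr* gave 1.43 to 7.44 in myogenic cells and 10.3 to 20.6 in endothelial cell-like cells. From *mdx* to D2-*mdx* the marker UMIs were more and the *Kdr* and *Flt1* UMIs fewer. In endothelial cell-like cells, too, both receptors gave fewer UMIs per 100 marker UMIs in D2-*mdx* than in *mdx*. In myogenic cells without a UMI of any endothelial, pericyte or white blood cell marker, *Kdr* gave 1, 21, 3 and 2 UMIs in B10, *mdx*, DBA and D2-*mdx*. In *mdx* its level there was 0.968 CPM, against 0.892 in all myogenic cells. In D2-*mdx* it was 0.194 CPM, lower than in all myogenic cells of that library. *Flt1* stood at 1.43 CPM in *mdx* and 0.583 in D2-*mdx*, each lower than in all myogenic cells of its library. The part of endothelial RNA in these counts was not tested.

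**Figure D1:**
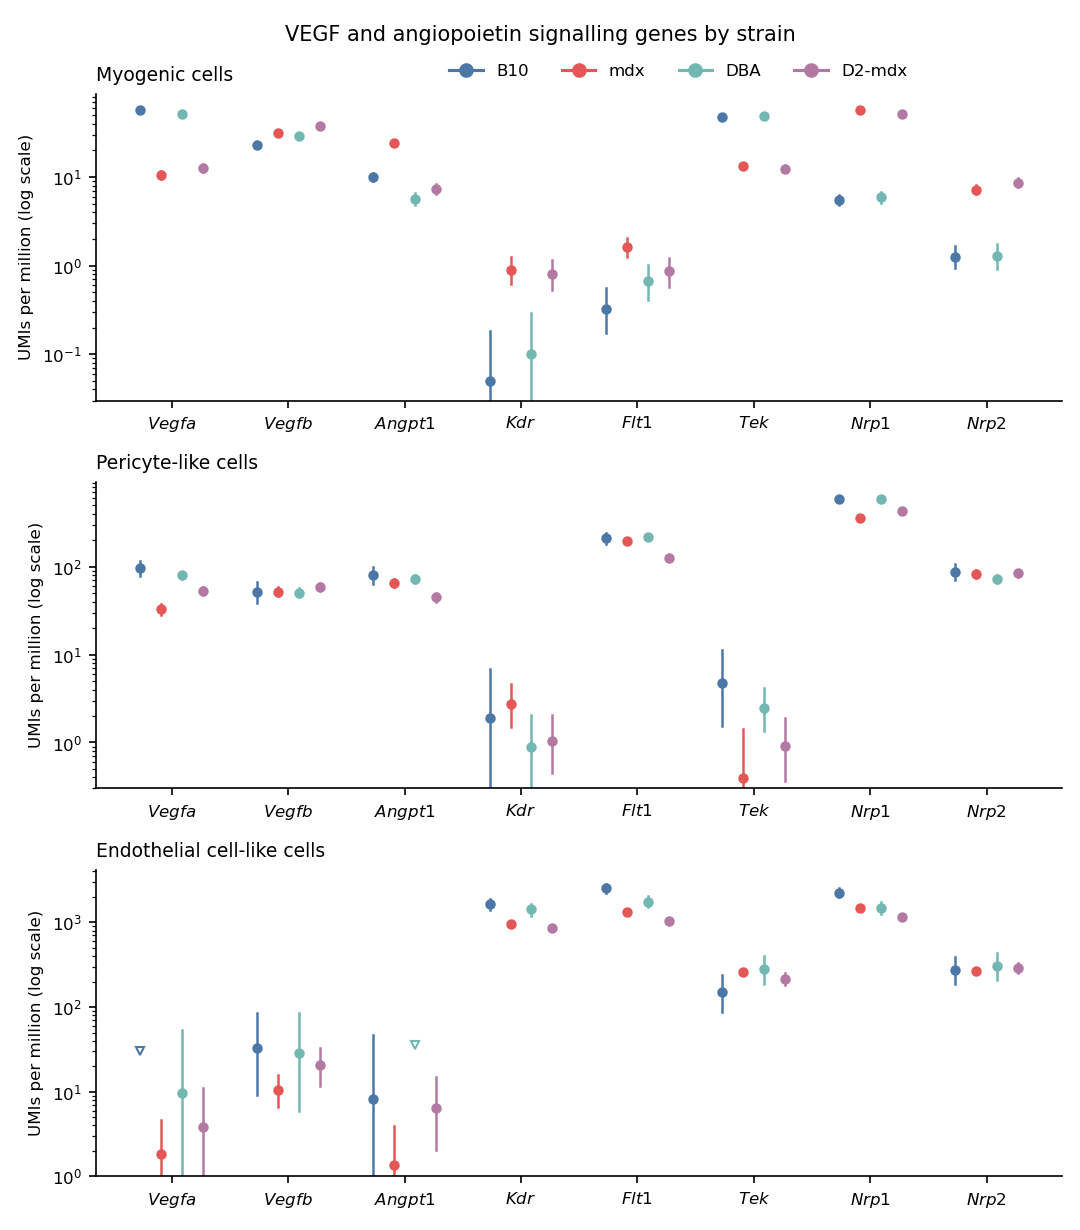
Level of each of the 8 genes (CPM on a log axis) in myogenic, pericyte-like and endothelial cell-like cells, 1 point per strain, with bars for the 95% exact Poisson counting interval cut at the lower axis limit and open triangles for the upper limit where no UMI was counted. In myogenic cells *Vegfa* (57.3 and 51.1 against 10.5 and 12.7) and *Tek* (47.8 and 48.3 against 13.3 and 12.4) lie higher in the control strains, and *Nrp1* (5.54 and 5.87 against 57.1 and 51.6) in the dystrophic ones.

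In counts, 4 of the 5 members tested passed 2-fold in myogenic cells of *mdx* over B10, 2 higher (*Nrp1*, *Angpt1*) and 2 lower (*Vegfa*, *Tek*), where 4.7% of all 8476 genes tested were higher and 5.17% lower. In D2-*mdx* over DBA it was 3 of 4, 1 higher (*Nrp1*) and 2 lower (*Vegfa*, *Tek*), against 5.87% higher and 5.89% lower of 8503 genes. Between the dystrophic strains 1 of 5 passed, *Angpt1*, lower in D2-*mdx*, against 1.99% higher and 1.55% lower of 8178 genes. Between the control strains 0 of 4 passed, against 1.76% higher and 1.81% lower of 8344 genes. These last comparisons use the same 4 libraries as the first pair of them. The median log2 ratio over the members tested was 0.44 in *mdx* over B10 and -0.79 in D2-*mdx* over DBA, against -0.03 and -0.07 over all genes tested. The medians of the members are over different genes, 5 and 4, since *Angpt1* was not tested in the DBA/2 pair. *Vegfa*, *Vegfb*, *Nrp1* and *Tek*, tested in both pairs, each went in the same direction in both. Members that passed the minimum only through the library where they were high were bound to differ, and 3 and 4 members respectively were not tested.

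**Figure D2:**
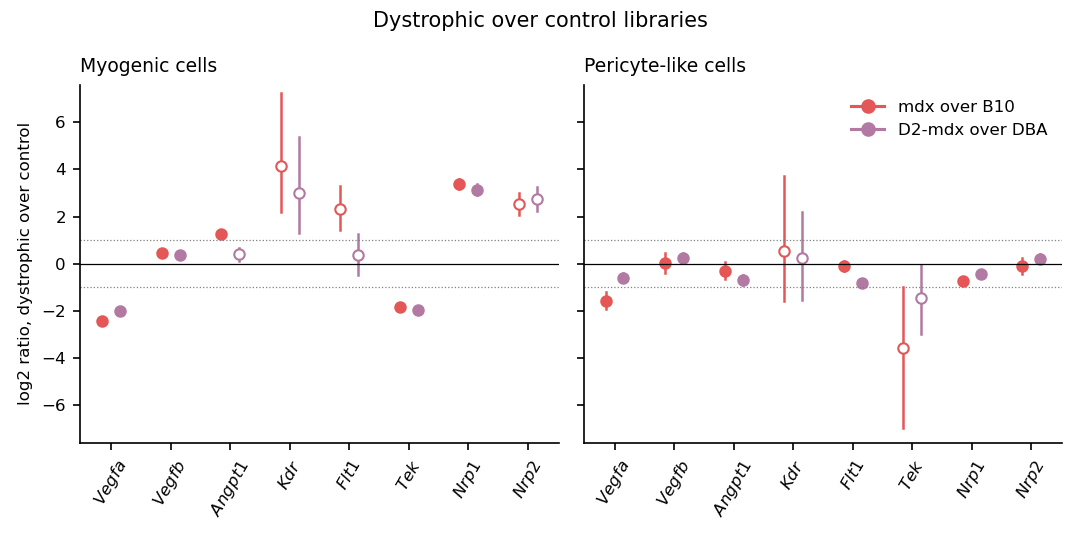
Log2 ratio of each gene, *mdx* over B10 or D2-*mdx* over DBA, in myogenic and pericyte-like cells, with bars for the 95% counting interval, open points for genes under the minimum of 10 CPM and 10 UMIs, and dotted lines at 2-fold. *Vegfa* (-2.45 and -2.01), *Tek* (-1.84 and -1.96) and *Nrp1* (3.36 and 3.13) lie past the lines in both myogenic comparisons, and in pericyte-like cells *Vegfa* does so in *mdx* over B10 (-1.57).

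Markers of other cell types moved with the groups and are set beside these differences. In myogenic cells the 7 pericyte markers summed to 26.8, 42.1, 37.3 and 68.3 CPM in B10, *mdx*, DBA and D2-*mdx*, and the 7 white blood cell markers to 1.28, 23.3, 7.17 and 98.0 CPM, with *Ptprc* at 0 in B10. If all endothelial marker UMIs had come with *Nrp1* in the ratio found in endothelial cell-like cells themselves, they would have carried 0.971 to 2.51 CPM of it. For pericyte marker UMIs the value is 1.48 to 2.62 CPM, and the measured levels were 57.1 and 51.6 in the dystrophic strains. White blood cell-like cells also held *Nrp1*, at up to 318 CPM, and the matching value for their markers is not given. The part of RNA from other cells in the *Nrp1* difference was not tested. Myogenic cells without a single UMI of these 21 markers numbered 3505, 2894, 1717 and 1520. In them *Nrp1* stood at 5.35, 57.2, 5.20 and 47.1 CPM, *Vegfa* at 57.5, 11.1, 51.6 and 16, and *Tek* at 50.1, 14.7, 46.9 and 16.8, in the same order of strains. *Angpt1* stood at 9.93, 26.3, 5.63 and 11.0 CPM, which left D2-*mdx* under *mdx* and put it further above DBA than in all myogenic cells. These marker-free cells were defined after the data were seen.

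Genes induced when tissue is dissociated can alter growth factor transcripts in freshly sorted cells, so 11 of them were read in the same sums. In *mdx* over B10, 3 fell (*Fosb* by 1.16, *Nr4a1* by 1.14 and *Zfp36* by 1.09 on the log2 scale) and 0 rose. Of all genes tested there, 4.7% were higher and 5.17% lower. In D2-*mdx* over DBA 1 rose (*Atf3*, 1.04) and 0 fell, where 5.87% of all genes tested were higher and 5.89% lower. The median log2 ratio over the 11 was -0.31 and -0.24, against -0.03 and -0.07 over all genes tested. *Fos* gave -0.13 and 0.32. Between the control libraries, in DBA over B10, 2 of the 11 fell (*Atf3* and *Nr4a1*) and 0 rose. Of all genes tested there, 1.76% were higher and 1.81% lower. The median over the 11 was -0.30 in that pair, against 0.01 over all genes tested. The part of dissociation genes in the *Vegfa* difference was not tested.

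The differences were next read within 7 clusters of myogenic cells, built without the members or the pathway genes. By their markers 2 were MuSC-like (muscle stem cell-like), led by *1200007C13Rik*, *Slc10a6*, *Btg2*, *Fosb* and *Klf4* or by *Gm3336*, *Ryr3*, *Mirg*, *Slc22a3* and *Gm13373*, and the others DMD-enriched-like, cycling progenitor-like, differentiating myocyte-like and immunomyoblast-like. Cluster 2, led by *Ccdc42*, *Ptgds*, *Lmod2*, *Elovl4* and *Gm26532*, scored nearest to the MuSC markers. It had none of them but the tenocyte marker *Scx* among its 10 leading genes, so it is given by its number. The MuSC-like, DMD-enriched-like and cycling progenitor-like clusters also had none of their own markers there, and none of another list. They are named by their marker scores. The 5 leading genes were *Cited1*, *Lgr5*, *Pkp1*, *R3hdml* and *Rundc3a* for the DMD-enriched-like cluster, *Pbk*, *Neil3*, *Nek2*, *Esco2* and *Kif23* for the cycling one, and *Gm17135*, *Mylk4*, *Myog*, *Tmem8c* and *Actc1* for the differentiating one. *Vegfa* was lower in *mdx* than in B10 in each of the 7, with log2 ratios from -2.80 to -2.03. In the MuSC-like cluster with most cells it stood at 65.7 CPM in B10 and 51.3 in DBA but 15.1 in *mdx* and 16 in D2-*mdx*. In D2-*mdx* over DBA the ratios ran from -2.23 to -1.68 in 6 clusters, and the immunomyoblast-like cluster gave -0.04 on 5 and 1 UMIs. So the lower level of *Vegfa* was found in stem cell-like, cycling and differentiating cells. Over the MuSC-like clusters alone the log2 ratios of the pairs were -2.27 and -1.71 for *Vegfa*, -1.37 and -1.39 for *Tek*, and 3.48 and 3.44 for *Nrp1*.

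*Tek* also differed along the myogenic states within each strain. In B10 it stood at 51.1 and 62.5 CPM in the MuSC-like clusters, 34.2 in cluster 2, 18.2 in the cycling progenitor-like and 11.7 in the differentiating myocyte-like cluster. In *mdx* the matching levels were 23.0, 19.4, 12.2, 2.93 and 2.01 CPM. Both the state and the strain therefore went with the level of the receptor, and the dystrophic level was lower in all 7 clusters of both pairs, with log2 ratios from -2.63 to -0.55 and from -3.75 to -1.07. Some of these rest on few counts: the DMD-enriched-like cluster of B10 held 3 *Tek* UMIs, and the immunomyoblast-like cluster held 1 in DBA and 2 in D2-*mdx*.

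*Nrp1* rose in the MuSC-like clusters and cluster 2, from 4.56, 3.52 and 7.32 CPM in B10 to 33.4, 65.1 and 56.0 in *mdx*, and from 2.56, 4.31 and 6.95 in DBA to 27.4, 54.7 and 51.5 in D2-*mdx*. The DMD-enriched-like cluster stood apart. There the gene was at 74.5 CPM in B10 (15 UMIs in 16 cells) and 52.2 in DBA (25 UMIs in 32 cells) but 64.3 in *mdx* (602 UMIs) and 78.9 in D2-*mdx* (445 UMIs), with log2 ratios of -0.21 (-0.95 to 0.63) for *mdx* over B10 and 0.60 for D2-*mdx* over DBA. The intervals of these ratios are wide, since the control cells of that cluster were few. *Angpt1* was lower in D2-*mdx* than in *mdx* in all 7 clusters, with log2 ratios from -2.59 to -0.93. Some of these rest on few UMIs in D2-*mdx* and *mdx*: 5 and 12 in the differentiating myocyte-like cluster, 2 and 21 in the immunomyoblast-like and 8 and 29 in the cycling progenitor-like one.

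**Figure D3:**
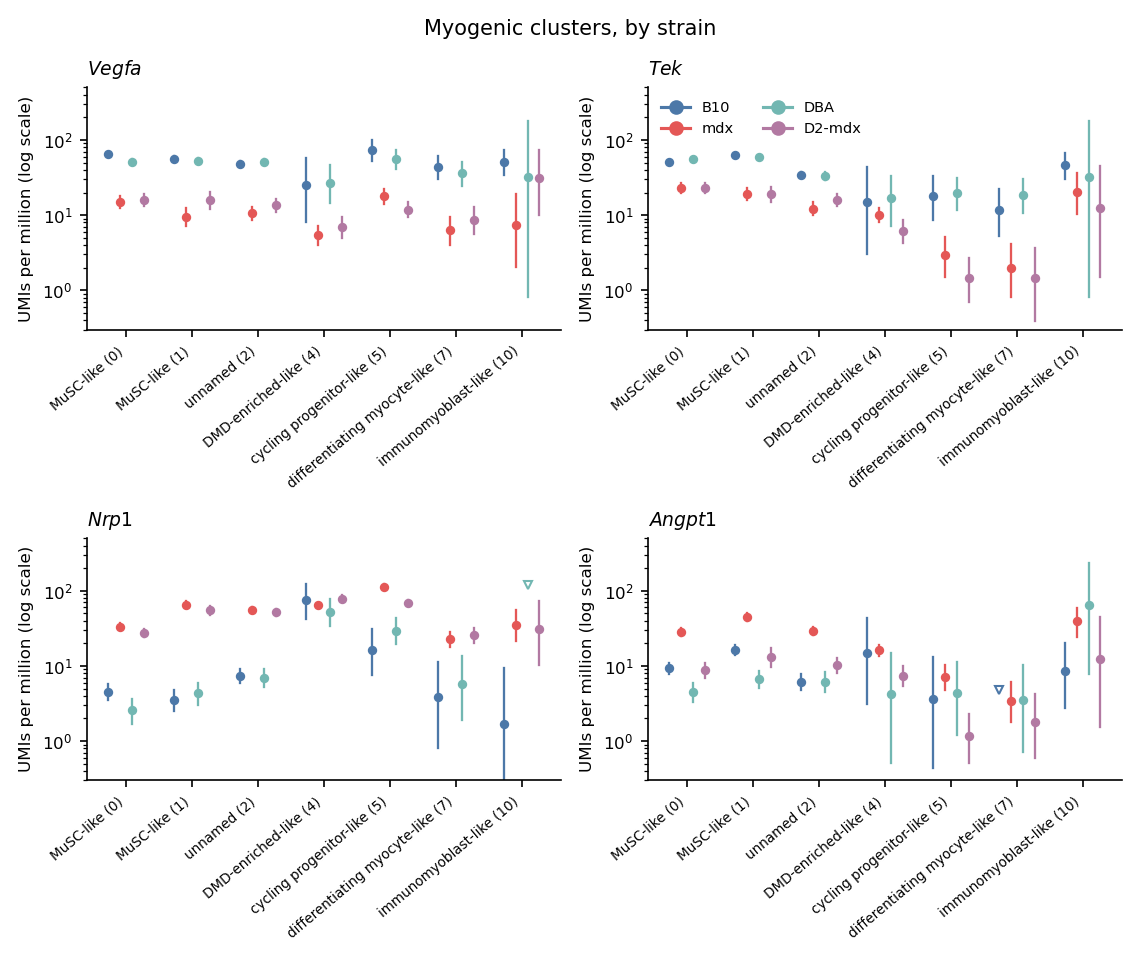
Level of *Vegfa*, *Tek*, *Nrp1* and *Angpt1* (CPM) in the 7 myogenic clusters by strain, with the cluster number in brackets, bars for the 95% exact Poisson counting interval and open triangles for the upper limit where no UMI was counted. *Vegfa* is lower in *mdx* than in B10 in each cluster, and in the DMD-enriched-like cluster *Nrp1* stands at 74.5 in B10 and 52.2 in DBA.

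The share of cells with a UMI was compared at equal depth. After thinning each cell to 3000 UMIs, which left out 39 B10 cells, *Vegfa* was found in 14.6% (13.5 to 15.6) of B10 and 12.5% (11.3 to 13.8) of DBA myogenic cells, against 2.97% (2.51 to 3.49) of *mdx* and 3.93% (3.36 to 4.56) of D2-*mdx* ones. Before thinning the shares were 33.4%, 36.5%, 7.2% and 8.98% in that order, at median depths of 8416, 10289.5, 6849 and 6487 UMIs. As a gauge of free RNA, *Vegfa* was found in 0.791% of thinned endothelial cell-like cells in *mdx* and 1.12% in D2-*mdx*, whose median depths were 7472 and 7687 UMIs. B10 and DBA, with 14 and 9 such cells before thinning, had too few for this gauge, so it does not cover the control libraries. Thinned shares were 13.4%, 4.69%, 13.2% and 4.50% for *Tek* in B10, *mdx*, DBA and D2-*mdx* (31.4%, 9.96%, 37.4% and 9.02% before thinning) and 1.44%, 12.5%, 1.07% and 11.6% for *Nrp1* (3.17%, 25.1%, 4.04% and 25.0% before). *Tek* was found in at most 1.05% of thinned pericyte-like cells, and the endothelial gene *Cdh5* in at most 0.477% of thinned myogenic cells, about the share of *Kdr*, at most 0.332%, and of *Flt1*, at most 0.415%. The highest count of *Vegfa* in a cell was 11 in B10 and 14 in DBA but 6 in *mdx* and 5 in D2-*mdx*.

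Pericyte-like cells carried ligands, *Flt1* and the neuropilins together. In B10, *mdx*, DBA and D2-*mdx* their 7 pericyte markers summed to 9070, 10094, 10046 and 11156 CPM. The 6 vascular smooth muscle markers summed to 15956, 16195, 19844 and 15024 CPM in the same cells, with *Rergl* at 0 in all but *mdx*. The name therefore does not separate capillary pericytes from other cells of the vessel wall. *Vegfa* stood at 96.5 CPM in B10 (101 UMIs, 78.6 to 117) and 79.6 in DBA (450 UMIs, 72.4 to 87.3) but 32.6 in *mdx* (165 UMIs, 27.8 to 38.0) and 52.6 in D2-*mdx* (404 UMIs, 47.6 to 58.0). The dystrophic libraries were again the lower ones and their intervals did not reach those of the controls. It fell by 1.57 on the log2 scale in *mdx* over B10 (-1.93 to -1.19), and in D2-*mdx* over DBA the ratio was -0.60 (-0.79 to -0.40), short of 2-fold. Whether the 2 ratios differ was not tested. *Angpt1* stood at 80.3, 64.8, 72.3 and 44.5 CPM and *Vegfb* at 51.6, 52.0, 50.2 and 58.7 CPM in B10, *mdx*, DBA and D2-*mdx*, with log2 ratios between -0.70 and 0.23.

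*Nrp1* in pericyte-like cells went the other way from myogenic cells. It stood at 583, 354, 584 and 428 CPM in B10, *mdx*, DBA and D2-*mdx*, with log2 ratios of -0.72 (-0.85 to -0.58) and -0.45 (-0.52 to -0.38). *Flt1* stood at 209, 195, 217 and 124 CPM, with ratios of -0.10 and -0.81 (-0.93 to -0.68), and *Nrp2* at 87.9, 82.6, 72.2 and 83.5 CPM. None of these passed 2-fold. Endothelial markers summed to 99.4, 146, 105 and 172 CPM in the same cells, with *Cdh5* and *Cldn5* at 0 in both control strains. Per 100 of those marker UMIs *Flt1* gave 211, 134, 206 and 72.1 in pericyte-like cells and 31.3, 18.6, 25.3 and 12.6 in endothelial cell-like cells. The part of endothelial RNA in the *Flt1* of pericyte-like cells was not tested. For *Kdr* the matching values were 1.92, 1.89, 0.842 and 0.607, under the 20.2, 13.4, 20.6 and 10.3 of endothelial cell-like cells.

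Of the 6 members tested in pericyte-like cells, 1 passed 2-fold in *mdx* over B10 (*Vegfa*, lower), where 2.15% of 8986 genes were higher and 6.32% lower. None of the 6 passed in D2-*mdx* over DBA, where 2.25% of 8773 genes were higher and 3.65% lower. The B10 library held 97 pericyte-like cells. In *mdx* over B10 the scaling mattered for genes at large: the higher calls were 25.4% of all calls with total UMIs, 41.2% with TMM and 39.7% with DESeq2 size factors, and the median of all genes moved from -0.11 to 0.05 and 0.04. *Vegfa* stayed past 2-fold under both, at -1.41 and -1.42.

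Endothelial cell-like cells held most *Kdr*, while the other receptors were shared with other classes. *Kdr* gave 196 UMIs in 14 B10 cells (1625 CPM) and 147 in 9 DBA cells (1417 CPM), and 2096 in 253 *mdx* cells (951 CPM) and 663 in 89 D2-*mdx* cells (845 CPM). These cells held 92.3% to 96.8% of all *Kdr* UMIs of a library, but 12.7% to 73.1% of the *Flt1* UMIs and 0.93% to 50.1% of the *Tek* UMIs, shares that depend on how many cells of each class passed the sort. Pericyte-like cells held 85.8% of the *Flt1* UMIs in DBA and 52.4% in D2-*mdx*, and myogenic cells 98.4% of the *Tek* UMIs in B10 and 95.9% in DBA. *Flt1* gave 304, 2914, 181 and 811 UMIs in B10, *mdx*, DBA and D2-*mdx*, and *Nrp1* gave 269, 3278, 152 and 903. *Tek* gave 18, 571, 29 and 169 UMIs, or 149, 259, 280 and 215 CPM, the range being wide where the cells were few. The control libraries held too few of these cells for a ratio, so dystrophic and control endothelial cell-like cells were not compared.

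Between the dystrophic strains the receptor levels in these cells were near each other. The log2 ratios of D2-*mdx* over *mdx* were -0.17 for *Kdr* (-0.30 to -0.04), -0.35 for *Flt1* (-0.47 to -0.24), -0.37 for *Nrp1* (-0.48 to -0.26), 0.11 for *Nrp2* (-0.12 to 0.33) and -0.27 for *Tek* (-0.52 to -0.02). None of the 6 members tested passed 2-fold, where 3.93% of 8221 genes were higher and 4.73% lower. The ligands were scarce: *Vegfa* gave 0 UMIs in B10, which allows up to 30.6 CPM, and 4, 1 and 3 UMIs in *mdx*, DBA and D2-*mdx*, and *Angpt1* gave 1, 3, 0 and 5 in the 4 libraries. *Vegfb* gave 23 UMIs in *mdx* and 16 in D2-*mdx*, a log2 ratio of 0.97 (-0.05 to 1.95). Pericyte markers summed to 91.2, 455, 164 and 477 CPM in these cells.

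Single endothelial cell-like cells mostly carried several receptors at once. At 3000 UMIs per cell, *Kdr* and *Flt1* were found together in 204 of 253 *mdx* cells (80.6%), *Flt1* and *Nrp1* together in 86.6%, and *Kdr*, *Flt1* and *Tek* together in 113 cells (44.7%). Alone, *Kdr* was found in 86.2% of *mdx* and 86.5% of D2-*mdx* cells, *Flt1* in 90.9% and 89.9%, and *Tek* in 52.6% and 47.2%. Before thinning *Tek* was found in 77.5% and 75.3%. A UMI of the capillary gene list was found in 253 of 253 *mdx* and 88 of 89 D2-*mdx* cells, of the arterial list in 212 and 75, and of the venous list in 166 and 57, so the lists did not divide these cells into types. The capillary list holds *Gpihbp1*, which is also one of the markers that named the class.

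**Figure D4:**
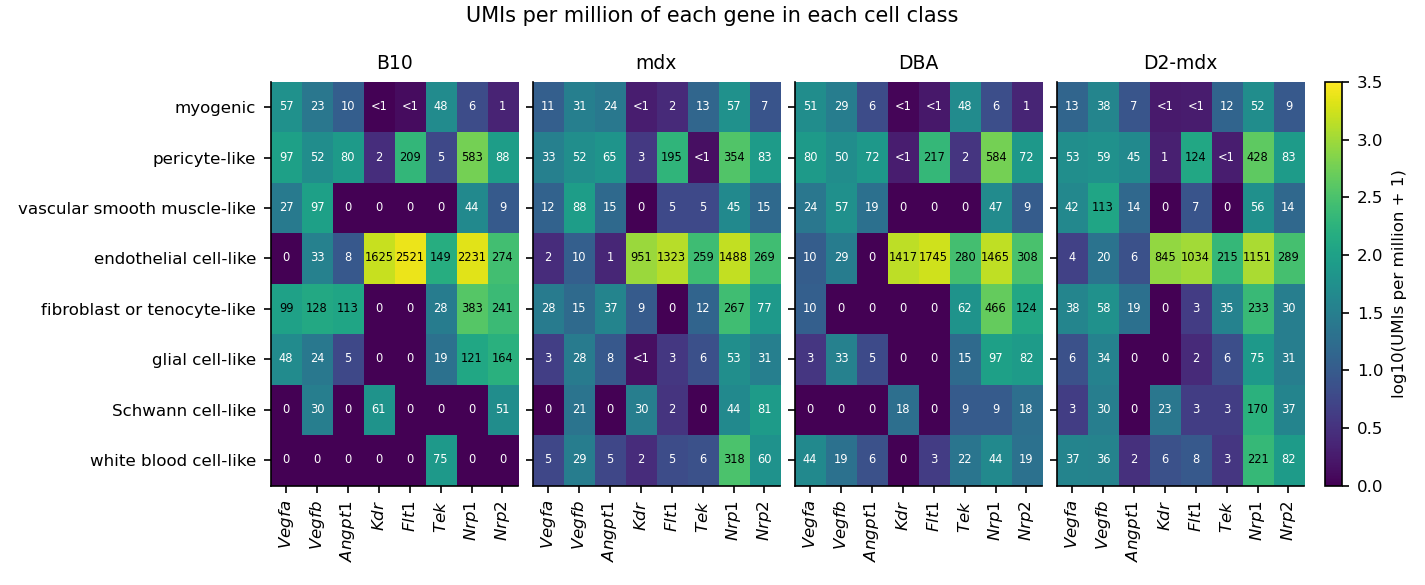
Level of the 8 genes in 8 cell classes for each strain, coloured by log10(CPM + 1), with the CPM printed in each field and "<1" for values under 1. *Kdr* stands out in endothelial cell-like cells (845 to 1625). *Nrp1* is highest in endothelial cell-like cells and also present in others, among them pericyte-like (354 to 584) and fibroblast or tenocyte-like cells (233 to 466). *Tek* is highest in endothelial cell-like cells (149 to 280). It is found at lower levels in myogenic cells (12.4 to 48.3) and other classes, among them fibroblast or tenocyte-like cells (12.3 to 62.2).

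The other genes of the pathway, 49 in 6 lists, were read in myogenic cells in the same way. In *mdx* over B10, 22 were tested, of which 4 rose and 2 fell, and in D2-*mdx* over DBA 22 were tested, of which 6 rose and 1 fell, against the same shares of all genes as above. Median log2 ratios were 0.23 and -0.01. *Sema3a*, *Esm1*, *Shb* and *Plxna1* in both pairs, and *Vegfc* in D2-*mdx* over DBA, passed the minimum only through the dystrophic library and were bound to differ, so these counts are a description. Semaphorins and plexins, the other partners of neuropilins, were among those past 2-fold. *Sema3a*, a secreted ligand of NRP1, rose from 1.53 CPM in B10 to 27.3 in *mdx* (log2 4.16, 3.79 to 4.55) and from 0.896 in DBA to 24.4 in D2-*mdx* (4.77, 4.22 to 5.38). *Plxna1*, a plexin that signals with NRP1, rose from 5.01 to 10.1 CPM (1.01) and from 6.64 to 14.8 (1.15). *Sema3b*, another secreted semaphorin, fell from 34.5 to 7.41 CPM (-2.22) and from 34.2 to 12.3 (-1.47). In *mdx* over B10 *Sema3b* passed the minimum only through B10 and was bound to differ. *Plxna2* (124, 90.9, 113 and 70.2 CPM) and *Plxnd1* (73.8, 58.1, 43.0 and 42.2 CPM), the plexins with the highest levels, did not pass 2-fold.

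Among ligands and signalling genes, *Esm1*, a proteoglycan induced by VEGF in endothelial tip cells, rose from 0.10 CPM in B10 (4 UMIs) to 16.5 in *mdx* (664 UMIs; log2 7.36, 5.99 to 9.24) and from 0.498 in DBA to 17.7 in D2-*mdx* (5.15, 4.42 to 6.0). *Shb*, an adaptor protein that binds KDR, rose by 1.24 and 1.91. *Foxo1*, a transcription factor restrained by angiopoietin and VEGF signalling through AKT, stood at 153, 73.0, 119 and 73.4 CPM and fell in *mdx* over B10 (-1.07), while in D2-*mdx* over DBA it gave -0.70. *Vegfc*, the ligand of the lymphatic receptor, gave 0.88 in *mdx* over B10 and rose in D2-*mdx* over DBA, from 5.34 to 16.2 CPM (1.60, 1.34 to 1.86). *Nr2f2*, from a list of venous genes, rose in both, at 11.1, 40.6, 8.66 and 25.3 CPM in B10, *mdx*, DBA and D2-*mdx*. In the DBA/2 pair it passed the minimum only through D2-*mdx*. It was 1 of 2 venous genes tested in each pair, and the other did not pass 2-fold. The medians of the 2 were 0.63 and 0.51 on the log2 scale. Of the arterial list, 1 of 2 tested genes rose in *mdx* over B10 (*Efnb2*) and 0 of 1 in D2-*mdx* over DBA. Of those 2 genes, 1 passed the minimum only through *mdx*. Of all genes tested, 4.7% were higher in *mdx* over B10 and 5.87% in D2-*mdx* over DBA. With so few genes tested, the venous and arterial counts are a description.

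Oxygen sensing is the usual control of *Vegfa* transcription. Of its list 6 genes were tested in each pair and 0 passed 2-fold, which is near the share of all genes (4.7% higher and 5.17% lower, or 5.87% and 5.89%) for a list of this size, with median log2 ratios of 0.12 and -0.13. *Hif1a*, the oxygen-regulated subunit, stood at 52.9, 80.8, 52.3 and 66.9 CPM, and *Egln1*, which marks it for destruction, at 60.6, 61.5, 71.4 and 68.0. Its partner *Arnt* stood at 49.4, 36.6, 46.0 and 32.2 CPM. Of 5 tested targets of hypoxia, 0 passed in *mdx* over B10 and 1 in D2-*mdx* over DBA, the glycolytic enzyme *Ldha*, which rose from 153 to 347 CPM (1.18). *Ndrg1* stood at 114, 135, 57.0 and 85.7 CPM and *P4ha1*, a collagen hydroxylase, at 42.0, 57.0, 36.1 and 37.9. Transcript levels do not show the activity of HIF proteins, which is set by their stability.

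In pericyte-like cells 27 pathway genes were tested per pair. In *mdx* over B10 1 rose and 5 fell, where 2.15% of 8986 genes were higher and 6.32% lower. In D2-*mdx* over DBA 0 rose and 4 fell, where 2.25% of 8773 genes were higher and 3.65% lower. In *mdx* over B10 *Ldha* rose (1.08) and *Vegfc* (-2.50), *Ptprb* (-1.55), *Plxna1* (-1.09), *Plcg1* (-1.71) and *Esm1* (-3.93) fell. In D2-*mdx* over DBA *Ptprb* (-1.2), *Plxna2* (-1.22), *Pgk1* (-1.39) and *Adm* (-1.32) fell. *Angpt2*, which competes with ANGPT1 at TIE2, stood at 122, 144, 153 and 115 CPM and did not pass 2-fold. The *Vegfc* ratio rests on 14 UMIs in B10 and 12 in *mdx*. *Vegfc* and *Esm1* passed the minimum only through B10 and were bound to differ, so these counts are a description. *Esm1* gave 22, 7, 0 and 8 UMIs in B10, *mdx*, DBA and D2-*mdx*, so only the B10 pericyte-like cells held it at a level like that of dystrophic myogenic cells. *Ptprb*, a phosphatase that acts on TIE2 and is characteristic of endothelium, fell in both pairs. In endothelial cell-like cells 35 pathway genes were tested between the dystrophic strains, of which 1 was higher and 2 lower in D2-*mdx*. Over all 8221 genes tested 3.93% were higher and 4.73% lower. *Pdk1* was higher in D2-*mdx* (1.2, 0.22 to 2.17). *Pgf* (-1.26, -3.24 to 0.26) and *Apln* (-1.37, -3.34 to 0.14) were past 2-fold on 4 UMIs each in D2-*mdx*, with counting intervals that include 0. *Pgf* and *Apln* passed the minimum only through *mdx* and were bound to differ. Of 3 listed lymphatic genes only *Lyve1* was tested, and it passed the minimum only through *mdx*. It gave 23 UMIs in *mdx* (10.4 CPM) and 2 in D2-*mdx* (2.55 CPM). After thinning it was found in 0.395% of the *mdx* cells. *Prox1* stood at 7.72 CPM in *mdx* and 5.10 in D2-*mdx*. *Pdpn* went the other way, at 1.82 and 5.10 CPM on 4 UMIs each.

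The genes whose levels followed each member most closely were found over 18 sums of myogenic cells by cluster and strain, among 2879 genes. *Vegfa* was most like *Wipf1* (Pearson r = 0.946) and *Clip1* (0.937). *Tek* was most like *Nf1* (0.982), *Pde3a* (0.981) and *Dmd* itself (0.980), and its r was 0.96 with the stem cell gene *Pax7* and -0.94 with *Myog*. *Nrp1* was most like *Cdk6* (0.982), *Dpysl3* (0.964) and *Col8a1* (0.961), *Angpt1* was most like *Auts2* (0.959), *Fibin* (0.899) and *Glul* (0.899), and *Vegfb* was most like *Cdc42* (0.967), *Mlf2* (0.957) and *Emc8* (0.951). The 18 points share 4 libraries and fall into control and dystrophic groups, so these values describe a common pattern over strains and clusters.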

How the data were processed

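Satellite cells of B10, *mdx*, DBA and D2-*mdx* mice were profiled by 10X droplet sequencing, 1 library per strain. The authors deposited UMI counts per gene and cell, made per the submitters' processing notes with Cell Ranger 3.0.1 on mm10. These counts, from transcript 3′ ends, do not separate splice forms such as soluble *Flt1*.

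The limits on cells were 1000 to 5000 genes and a mitochondrial share of UMIs of at most 8% (3370 to 6669 cells per library passed). The highest Scrublet scores (scanpy 1.11.5) were removed as doublets at a doublet fraction of 0.008 for each 1000 cells, 2.70% to 5.34% of cells. Libraries were integrated with Seurat 5.3.0 (R 4.3.3) on 2000 features, of which 1981 remained once the members and listed genes were left out, with 30 dimensions and resolution 0.1 for cell classes or 0.4 for myogenic clusters. A class was named "X-like" from 13 marker lists. UMIs were summed per class and library (37024800 to 52732731 UMIs in kept cells per library), divided by the total of all genes and given as CPM. A ratio counted as past 2-fold only with at least 10 CPM and 10 UMIs in 1 library of the pair. Where a count was 0, a floor of 3 counts applied. With 1 library per strain no p-value was computed. Python 3.11.15, numpy 2.4.6, scipy 1.17.1, pandas 2.3.3 and matplotlib 3.10.9 were used.

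Besides the 8 genes, the text names listed genes past 2-fold in one direction in both dystrophic comparisons of myogenic cells or between dystrophic endothelial cell-like cells, the 3 with the highest level of each role, the 3 genes most like each member (among genes with a mean of at least 50 CPM, for members with at least 20 CPM), leading genes of clusters and *Dmd*. A gene that this rule names is not reported here. Other listed genes past 2-fold in 1 comparison, and the gauges of dissociation and foreign RNA, were named after their values were seen. Members and lists were chosen with earlier results of these data known. Alternatives covered cell limits, doublets, features, integration, resolution, size factors (edgeR 4.0.16 TMM, DESeq2 1.42.0), per-cell means, the minimum level, the cells summed and the thinning depth. Cells without foreign markers were an alternative added after seeing the data.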

Additional observations from a re-analysis of the deposited data

How the results depend on the processing

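Over all alternatives, 712 log2 ratios were recomputed, of which 647 moved by less than their counting interval, 65 by more and 0 changed sign as calls. Of 117 recomputed counts 94 stayed within 1.5 times. Some of the 647 ratios could not move. A changed minimum level alters which genes are tested and not their ratios. The finer resolution for cell classes gave the same calls as the main setting. These alternatives are also among the 14 counted next, so they add no check of the ratios there. *Vegfa* in myogenic cells ranged from -2.45 to -2.27 in *mdx* over B10 and from -2.01 to -1.44 in D2-*mdx* over DBA, and *Tek* from -1.98 to -1.11 and from -2.44 to -1.39, ratios past 2-fold in 14 of 14 alternatives each, although at a minimum of 50 CPM *Tek* was too low to be called. *Nrp1* ranged from 2.45 to 3.48, and in D2-*mdx* over DBA from 0.47 (all cells of a library summed) to 3.44. *Angpt1* in D2-*mdx* over *mdx* missed 2-fold with all cells (-0.99). With a minimum of 50 CPM the members past 2-fold in myogenic cells numbered 2 in *mdx* over B10 and 0 in D2-*mdx* over *mdx*, and the pathway genes 1 in each dystrophic comparison. With no minimum they numbered 7 in *mdx* over B10, 5 in D2-*mdx* over DBA and 1 in DBA over B10 (*Flt1*), the pathway genes 20 and 23, and the members 2 and 1 in pericyte-like cells and 2 in endothelial cell-like cells. Summing MuSC-like cells alone gave 3 and 4 pathway genes and 1 member in DBA over B10 (*Angpt1*), as did per-cell means. Summing all cells gave 7, 2 and 3 members (*mdx* over B10, D2-*mdx* over *mdx*, DBA over B10) and 10 pathway genes. Keeping doublets, leaving out integration or per-cell means gave 1 member in endothelial cell-like cells, *Vegfb*. Of 288 shares of cells 174 moved, as thinning depth sets them. No paired analysis was possible because each strain is 1 library. With 14 B10 and 9 DBA endothelial cell-like cells, receptor levels there are imprecise.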

Other observations

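Classes outside the comparisons held some of the same genes. *Kdr* stood at 60.8, 30.3, 18.1 and 23.4 CPM in the 14, 80, 11 and 46 Schwann cell-like cells of B10, *mdx*, DBA and D2-*mdx*. *Nrp1* in white blood cell-like cells stood at 318 CPM in *mdx* and 221 in D2-*mdx*, where 112 and 162 cells were found, and in fibroblast or tenocyte-like cells at 383, 267, 466 and 233 CPM. *Sema3e*, a semaphorin that binds plexin D1, gave 0 UMIs in pericyte-like cells of B10 and *mdx*, which allows up to 3.53 and 0.729 CPM by the exact Poisson upper limit. It gave 143 UMIs (25.3 CPM) in those of DBA and 174 (22.7 CPM) in those of D2-*mdx*, so its counts split by genetic background and not by disease in these 4 libraries.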
